A study of Mus musculus with 16 samples.

Results

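The let-7 family members mmu-let-7a, mmu-let-7b, mmu-let-7c, mmu-let-7d, mmu-let-7f, mmu-let-7g and mmu-let-7i and their relative mmu-miR-98, named from here on without the species prefix, were followed across 8 sorted cell populations of the mouse. The members were taken by name from the miRNAs on the arrays, 8 of 604, and all 8 were detected on all 16 arrays and tested. let-7e was not counted among them, because it lies in a different genomic cluster. Every population came from female C57Bl/6 mice aged 6 weeks, was sorted without culture, and was measured as 2 pools of animals on 1-colour Agilent miRNA arrays. The differentiated cells of the marrow were Gr1+ monocytes (CD11b+ CD115+ Gr1+) and plasmacytoid dendritic cells (PDC, B220+ CD11c intermediate SiglecH+ CD317+), each pool holding cells of 5 mice. Those of the spleen were 3 dendritic cell (DC) populations gated on CD11c, namely CD4+ DC, CD8+ DC and CD4-CD8- DC, each pool holding cells of 8 mice. The CD8+ DC gate also required CD86, which is listed for no other population. The 3 progenitor populations, each pool holding marrow of 15 mice, carried CD135 but no lineage markers. MP cells, an abbreviation the labels leave unexplained, were CD117+ and CD115-. MDP were CD117+ and CD115+, and CDP were CD117 low and CD115+. The labels list no treatment or transgene, and all 16 pools shared strain, sex and age.

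The let-7 miRNAs are small RNAs that repress messages carrying sites for their shared seed, and were first known from the worm Caenorhabditis elegans, where let-7 drives the passage from larval to adult cell fates. In mammals their best known targets include Lin28, Hmga2, Ras and Myc messages, and Lin28 proteins in turn bind let-7 precursors and block their processing in stem and fetal cells. The members are made from several hairpins on different chromosomes, so that 1 member can be made where another is not, while their shared seed lets them act on overlapping sets of messages.

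The mature sequences are shown because the members are told apart on the array by only a few bases. They are from RefSeq (GRCm38.p6), which held all 8, written 5′ to 3′ with the seed, bases 2 to 8, in capitals.
let-7a: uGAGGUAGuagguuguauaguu
let-7b: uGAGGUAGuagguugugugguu
let-7c: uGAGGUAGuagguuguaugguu
let-7d: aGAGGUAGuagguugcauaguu
let-7f: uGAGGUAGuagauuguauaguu
let-7g: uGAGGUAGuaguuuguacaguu
let-7i: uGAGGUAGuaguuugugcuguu
miR-98: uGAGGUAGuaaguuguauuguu
All 8 shared the seed GAGGUAG and a length of 22 bases. Counted from the 5′ end and with let-7a first, let-7c differed from it by A19G, let-7b by A17G and A19G, and let-7f by G12A. Against let-7a, let-7g carried G12U and U18C, miR-98 G11A and A19U, and let-7d U1A and U16C, while let-7i differed by 4 bases.

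The hairpins fall into groups on the genome (GRCm38.p6). Those of let-7a-1, let-7f-1 and let-7d lie together on the minus strand of chromosome 13, with let-7a-1 at 48538179 to 48538272, 261 bases from let-7f-1, which is 1714 bases from let-7d. Those of let-7c-2 (chromosome 15, 85706603 to 85706697) and let-7b (85707319 to 85707403) lie 621 bases apart on the plus strand, within the span of the gene Lncppara. let-7g stands alone on chromosome 9 (106178840 to 106178927), within the span of Wdr82, and let-7i alone on chromosome 10 (122985640 to 122985724), within no other gene of the annotation used. miR-98 (151913214 to 151913321) and let-7f-2 lie 785 bases apart on chromosome X, within the span of Huwe1. let-7a is also made from chromosome 9 and let-7c from chromosome 16, where its hairpin lies 656 bases from that of miR-99a. A probe reads the mature miRNA, so the loci of let-7a, let-7c and let-7f cannot be told apart, and whether these spans are exons or introns was not analysed here.

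Each member was read by 2 probes. The probes are printed for the members that behaved differently, with capitals at the bases that would not pair with let-7a.
let-7a probe: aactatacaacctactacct
let-7b probe: aacCaCacaacctactacc
let-7c probe: aacCatacaacctactacc
let-7g probe: aactGtacaaActactacctc
let-7i probe: aacAGCacaaActactacctc
The let-7c probes differed by 1 base from a match to let-7a and by 1 base from a match to let-7b. Those of let-7g had at least 2 mismatches to every other member, as did those of let-7i and miR-98. The 2 probes of each member gave differences of the same sign between differentiated and progenitor populations in both array designs, for example 0.66 and 0.84 for let-7g and -0.50 and -0.69 for let-7c. The share of each signal that came from a near relative was not tested.

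Values are log2 signals relative to a per-array scale, the 75th percentile over those 88 miRNAs that every array detected. Differences are log2 differences ± SE from a limma fit over 175 tested miRNAs, with the array design as a block, and a difference is called where the adjusted p is under 0.05. All replicates 1 were hybridised to one array design (design 1) and all replicates 2 to another (design 2), so an SD over both includes the offset between designs, which for the members ran from -0.25 (miR-98) to 0.34 (let-7b). On each array 16.7 to 25.4% of spots were well above background and 116 to 174 miRNAs were detected, and 0 spots were saturated. The number of arrays limits the precision. The pools are RNA of sorted cells, and fewer cells of a type and less RNA per cell cannot be told apart. Because probes differ in how brightly they read, members are compared only in how they differed between populations.

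A moderated F test over the 8 populations called all 8 members, where it called 73.1% of the tested miRNAs. let-7g had the smallest adjusted p (1.23e-05) and miR-98 the largest (0.0211). The widest range of population means was that of let-7g, 1.30 or 2.46-fold, from PDC down to CDP. The ranges of let-7c (1.15) and let-7b (1.11) followed, both with their highest mean in MP. let-7f (0.81), let-7a (0.70) and let-7d (0.66) had their highest mean in CD8+ DC and their lowest in CDP, and miR-98 (0.64) its highest in CD8+ DC and its lowest in MP. let-7i (0.61) ran from PDC to CDP.

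**Figure D1:**
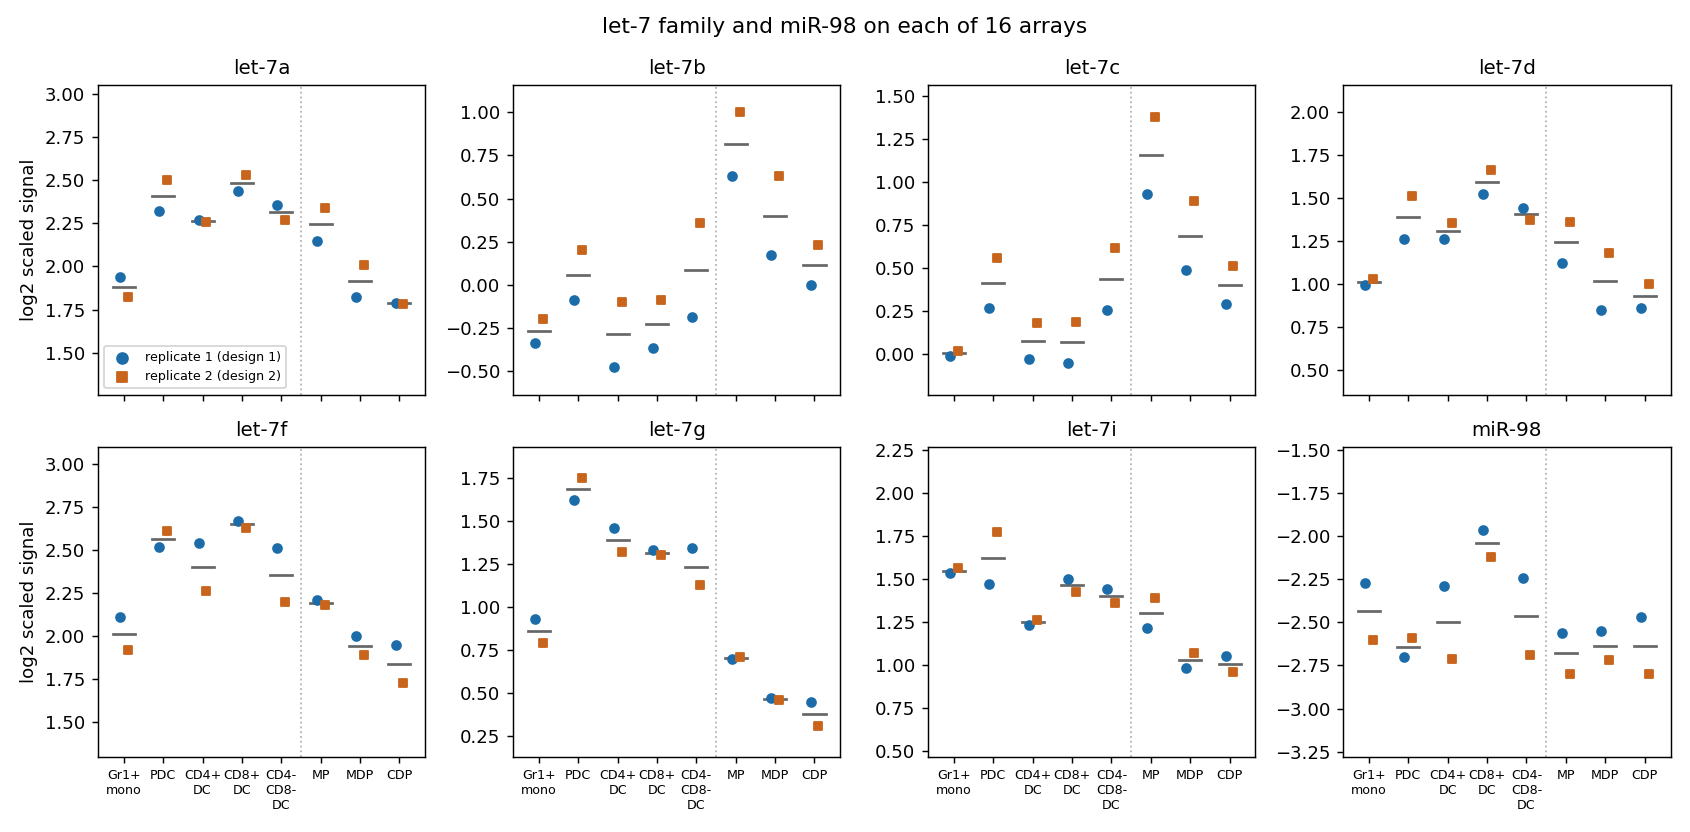
Log2 scaled signal of each member on all 16 arrays, 1 panel per member with axes of equal span. Points are arrays (circles, replicate 1; squares, replicate 2), grey lines are means of 2, differentiated populations stand left of the dotted line and progenitors right of it. let-7b and let-7c lie highest in MP, and let-7g in PDC (1.62 and 1.75).

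Differentiated populations were compared with progenitors to ask which members move with maturation. In the mean of the 5 differentiated against the mean of the 3 progenitor populations, 6 members were called higher and 2 lower, beside 38.9% of all tested miRNAs called higher and 24.6% lower (63.4% in all). let-7b (-0.57 ± 0.05) and let-7c (-0.55 ± 0.05) fell, which is 1.49-fold and 1.46-fold lower. let-7g rose most (0.78 ± 0.05, 1.72-fold), with let-7f (0.41 ± 0.06), let-7i (0.34 ± 0.06), let-7a (0.29 ± 0.05), let-7d (0.28 ± 0.05) and miR-98 (0.23 ± 0.07) called higher in this scaling, of which let-7a and let-7d turned under quantile normalization (-0.09 and -0.01). The median over the members was 0.28, and over all tested miRNAs 0.14.

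The 2 members that fell and let-7g kept direction and call in all 9 other processing settings and when any 1 array was left out. Changing the filter or the block left the signals as they were, so there only the call could change. The deposited series tables held the same signals within 0.51%. The differences of let-7b ran from -0.80 to -0.50 over those 9 settings, of let-7c from -0.78 to -0.50 and of let-7g from 0.50 to 0.78. The other 5 depended on how the arrays were scaled. With the scale taken over all miRNAs of an array, let-7a (0.06), let-7d (0.05), let-7f (0.18), let-7i (0.12) and miR-98 (0.01) were not called, and the median of all tested miRNAs was 0.03. Relative to the median of all tested miRNAs, let-7g was higher by 0.64 in the main scaling, 0.52 with all miRNAs setting the scale and 0.46 under quantile normalization, while let-7b stood at -0.71, -0.83 and -0.76 and let-7c at -0.68, -0.81 and -0.81.

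Spleen and marrow differ as tissues, so the comparison was repeated within marrow, with Gr1+ monocytes and PDC against MP, MDP and CDP. let-7g (0.76 ± 0.06, adjusted p = 7.98e-06), let-7i (0.47 ± 0.07, adjusted p = 0.000365) and let-7f (0.30 ± 0.07, adjusted p = 0.00597) were higher. let-7b (-0.55 ± 0.07, adjusted p = 0.000108) and let-7c (-0.54 ± 0.07, adjusted p = 0.000122) were lower. In this comparison 50.3% of all tested miRNAs were called, 28% higher and 22.3% lower. let-7a (0.16, 95% interval 0.01 to 0.31), let-7d (0.14, -0.01 to 0.29) and miR-98 (0.11, -0.08 to 0.30) were not called, and let-7a turned under quantile normalization (-0.06). The call of let-7f ended with the scale over all miRNAs (0.19), without the block (0.30) and with normexp background correction (0.22), which also ended that of let-7i (0.39).

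**Figure D2:**
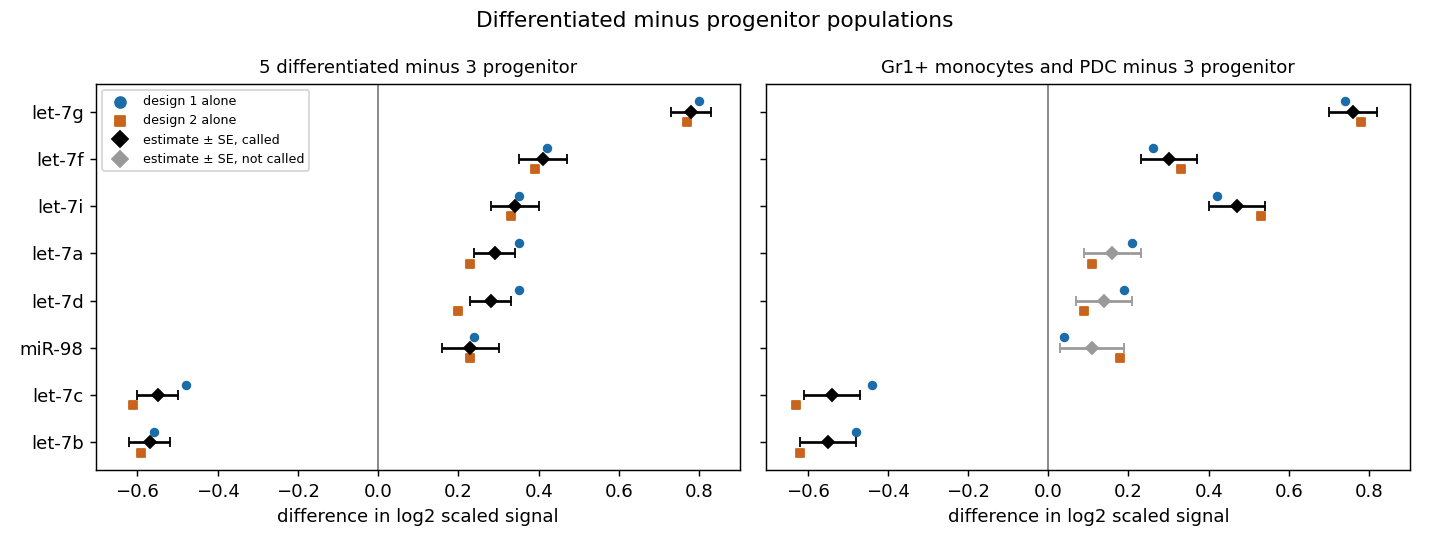
Difference in log2 scaled signal between differentiated and progenitor populations for each member, over all populations (left) and within marrow (right). Diamonds with bars are estimates ± SE (grey, not called), circles and squares are array designs 1 and 2 alone. let-7g lies farthest right and let-7b and let-7c lie left of 0 in both designs, while let-7a and let-7d turned under quantile normalization in the left comparison (-0.09 and -0.01).

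let-7c, made from chromosomes 15 and 16, showed the fall array by array. In differentiated cells it measured -0.01 and 0.02 in Gr1+ monocytes, 0.27 and 0.56 in PDC, -0.03 and 0.18 in CD4+ DC, -0.05 and 0.19 in CD8+ DC and 0.26 and 0.62 in CD4-CD8- DC, against 0.93 and 1.38 in MP, 0.49 and 0.89 in MDP and 0.29 and 0.51 in CDP. MP stood above every other population in both designs, and MDP stood second in both. On design 1 every differentiated array lay below every progenitor array, but on design 2 PDC and CD4-CD8- DC overlapped CDP. PDC, CD4-CD8- DC and CDP changed places between the designs, as did CD4+ DC, CD8+ DC and Gr1+ monocytes, so neighbours within these sets did not differ beyond their spread.

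let-7b, its neighbour on chromosome 15, followed the same course. It measured -0.34 and -0.20 in Gr1+ monocytes, -0.09 and 0.20 in PDC, -0.48 and -0.10 in CD4+ DC, -0.37 and -0.09 in CD8+ DC and -0.19 and 0.36 in CD4-CD8- DC, against 0.63 and 1.00 in MP, 0.17 and 0.63 in MDP and 0.00 and 0.23 in CDP. The overlap was again on design 2, where CD4-CD8- DC lay above CDP. CD4+ DC had the lowest mean (-0.29 ± 0.26, SD, n = 2). Gr1+ monocytes changed places with CD4+ DC and with CD8+ DC between designs, so their order was within the spread.

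let-7g, made from a single hairpin on chromosome 9, showed the opposite course. It measured 0.93 and 0.79 in Gr1+ monocytes, 1.62 and 1.75 in PDC, 1.46 and 1.32 in CD4+ DC, 1.33 and 1.30 in CD8+ DC and 1.34 and 1.13 in CD4-CD8- DC, against 0.70 and 0.71 in MP, 0.47 and 0.46 in MDP and 0.45 and 0.31 in CDP. It was the only one of the 8 members whose differentiated arrays all lay above all progenitor arrays in both designs, as did those of 10.9% of all tested miRNAs. PDC were highest and CDP lowest in both designs, and Gr1+ monocytes lay between the progenitors and the DC. CD8+ DC and CD4-CD8- DC changed places between designs.

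let-7i, made from a single hairpin on chromosome 10, was the member whose highest means were those of PDC and Gr1+ monocytes together. It measured 1.53 and 1.56 in Gr1+ monocytes, 1.47 and 1.77 in PDC, 1.23 and 1.26 in CD4+ DC, 1.5 and 1.42 in CD8+ DC and 1.44 and 1.36 in CD4-CD8- DC, against 1.21 and 1.39 in MP, 0.98 and 1.07 in MDP and 1.05 and 0.96 in CDP. MP overlapped CD4+ DC and CD4-CD8- DC, and MDP and CDP lay below all others in both designs. The order of PDC and Gr1+ monocytes turned between designs, and so did that of PDC and CD8+ DC, which lay above PDC on design 1.

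let-7f, let-7a and let-7d, the 3 members of the chromosome 13 cluster, were highest in CD8+ DC and low in CDP, MDP and Gr1+ monocytes. PDC came next by mean for let-7f and let-7a and CD4-CD8- DC for let-7d, but not in both designs. Mean signals of let-7f were 2.65 ± 0.03 in CD8+ DC, 2.57 ± 0.06 in PDC, 2.40 ± 0.20 in CD4+ DC, 2.36 ± 0.22 in CD4-CD8- DC and 2.01 ± 0.13 in Gr1+ monocytes, against 2.19 ± 0.02 in MP, 1.94 ± 0.08 in MDP and 1.84 ± 0.16 in CDP (SD, n = 2 each). The monocytes lay below MP in both designs, so let-7f did not separate the 2 classes. Means of let-7a were 2.48 ± 0.07 in CD8+ DC, 2.41 ± 0.12 in PDC, 2.31 ± 0.07 in CD4-CD8- DC, 2.27 ± 0.01 in CD4+ DC and 1.88 ± 0.09 in Gr1+ monocytes, against 2.24 ± 0.13 in MP, 1.91 ± 0.14 in MDP and 1.78 ± 0.01 in CDP. Those of let-7d were 1.59 ± 0.10 in CD8+ DC, 1.40 ± 0.05 in CD4-CD8- DC, 1.39 ± 0.17 in PDC, 1.30 ± 0.06 in CD4+ DC and 1.01 ± 0.02 in Gr1+ monocytes, against 1.24 ± 0.17 in MP, 1.01 ± 0.23 in MDP and 0.93 ± 0.10 in CDP. For both, MDP and Gr1+ monocytes changed places between designs, and MP and CD4+ DC did too. The monocytes lay below MP in both designs for let-7a and let-7d as well, so neither separated the 2 classes.

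miR-98, which lies beside the second let-7f hairpin on chromosome X, had a course of its own. It measured -2.27 and -2.60 in Gr1+ monocytes, -2.70 and -2.59 in PDC, -2.29 and -2.71 in CD4+ DC, -1.96 and -2.12 in CD8+ DC and -2.24 and -2.69 in CD4-CD8- DC, against -2.56 and -2.80 in MP, -2.55 and -2.72 in MDP and -2.47 and -2.80 in CDP. CD8+ DC stood above all other populations in both designs, and the others overlapped. Its signal before scaling was between 50.7 and 157 on all arrays.

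Because members can move together with the scale of an array, ratios of members on the same array were also taken, which no single factor per array can change, although quantile normalization can. The log2 ratio of let-7g to let-7c was 0.95 to 1.5 (median 1.35) in the 5 differentiated arrays of design 1, against -0.23 to 0.16 (median -0.02) in the 3 progenitor arrays. On design 2 it was 0.51 to 1.19 (median 1.11) in differentiated arrays, against -0.68 to -0.20 (median -0.43) in progenitor arrays. No differentiated array overlapped a progenitor array on either design or across both. The ratio of let-7a to let-7c, which differ by A19G, was 1.65 to 2.48 in differentiated arrays, against 0.95 to 1.5 in progenitor arrays, and did not overlap either. That of let-7i to let-7c was 0.74 to 1.55, against 0 to 0.76, and overlapped across the designs. Pairs were chosen among the members. On these same arrays let-7g was the member that rose most and let-7c 1 of the 2 that fell. That these ratios stayed apart follows in part from this choice and is no separate support. How many pairs of other miRNAs stay apart was not counted. The ratio of let-7b to let-7c stayed within -0.44 to -0.23 in differentiated arrays, against -0.38 to -0.26 in progenitor arrays.

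**Figure D3:**
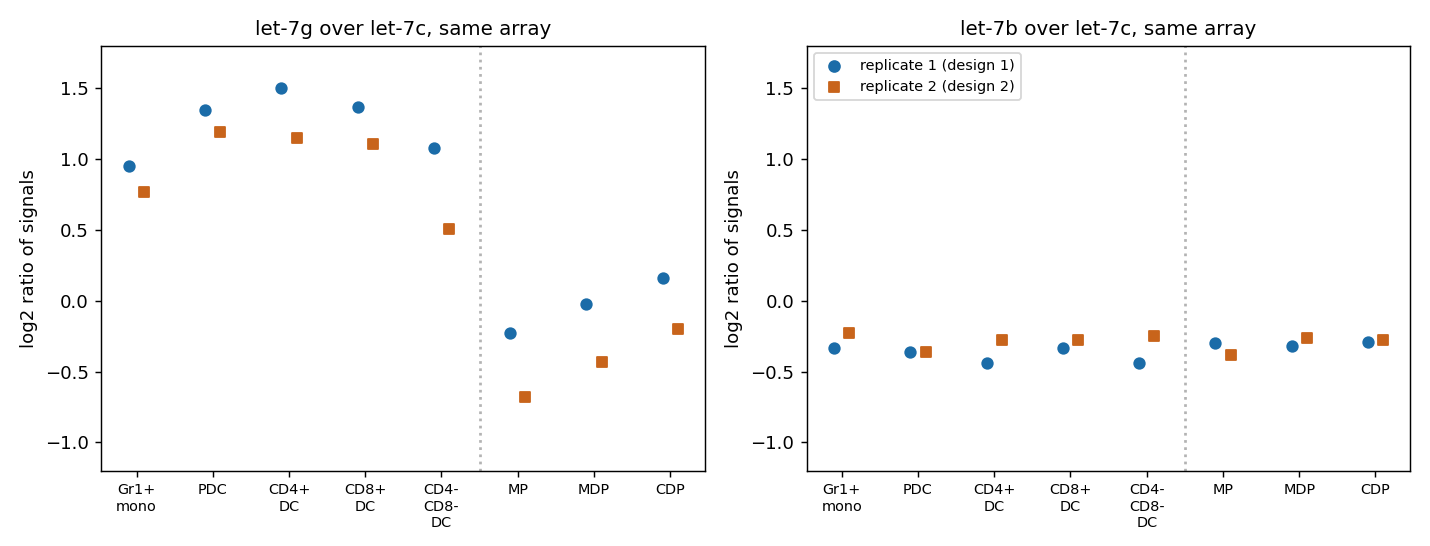
Log2 ratio of the signals of let-7g and let-7c (left) and of let-7b and let-7c (right) on the same array, for each population, differentiated left of the dotted line and progenitors right of it. Points are single arrays (circles, replicate 1; squares, replicate 2). The let-7g ratio is 0.51 to 1.5 in differentiated arrays, against -0.68 to 0.16 in progenitor arrays, and the let-7b ratio runs along 1 level.

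Set against the mean of the 8 members on the same array, let-7b and let-7c fell behind by 0.72 and 0.70 on the log2 scale in differentiated populations, values of -0.74 and -0.67 on design 1 and -0.71 and -0.73 on design 2. let-7g moved ahead by 0.63 (0.61 and 0.65), let-7f by 0.25, let-7i by 0.19, let-7a by 0.14, let-7d by 0.13 and miR-98 by 0.08. The mean holds these members themselves, so the relative changes balance out. The fall of let-7b and let-7c lifts the others, and a rise of the others lowers let-7b and let-7c. In PDC over CDP these 2 stood at -0.52 and -0.44 relative to the mean, although their own differences were -0.06 and 0.02. All relative changes are descriptions of a split among chosen members and carry no test.

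**Figure D4:**
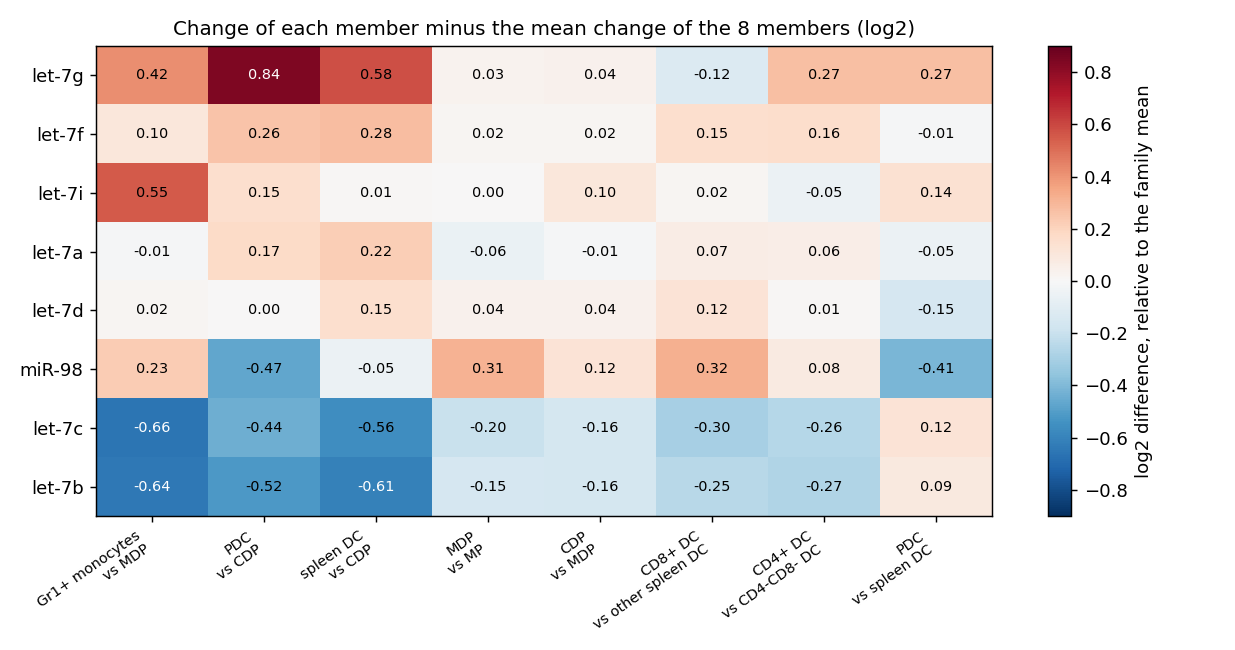
Change of each member minus the mean change of the 8 members, on the log2 scale, for 8 comparisons (columns, first population minus second). Red is ahead of the family and blue behind it. In the 3 comparisons of differentiated cells with their progenitors, let-7b and let-7c lie between -0.66 and -0.44, and let-7g between 0.42 and 0.84. In PDC over CDP the own differences of let-7b and let-7c were -0.06 and 0.02, so there they lie behind because others rose.

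The progenitors were compared in turn. In MDP against MP, let-7c (-0.47 ± 0.10, adjusted p = 0.0271) and let-7b (-0.42 ± 0.10, adjusted p = 0.0375) were lower and 0 members higher, beside 9.71% of all tested miRNAs called lower and 0.571% higher (10.3% in all). Both calls ended in 6 of the 9 other settings, where the differences of both ran down to -0.14, and leaving out any 1 of the 4 arrays left 0 or 1 call. The other members lay between -0.33 (let-7a) and 0.04 (miR-98) and were not called. In CDP against MDP limma called 0 of 8 members and 0% of all tested miRNAs, with 2 members, let-7b and let-7c, and 26 of all at an unadjusted p under 0.05. let-7b stood at -0.29 (95% interval -0.52 to -0.05) and let-7c at -0.29 (-0.52 to -0.05), and both turned with the scale over all miRNAs (0.19 and 0.18). Over both steps, in CDP against MP, a comparison added after seeing the data, let-7c (-0.75 ± 0.10, adjusted p = 0.0018) and let-7b (-0.70 ± 0.10, adjusted p = 0.00235) were lower, and let-7a (-0.46 ± 0.10), let-7f (-0.35 ± 0.11) and let-7g (-0.32 ± 0.09) were called lower as well. That is 5 members lower and 0 higher, beside 19.4% and 1.71% of all tested miRNAs (21.1% in all), whose median was -0.21. With the scale over all miRNAs 0 of the 5 calls held, let-7c stood at -0.01 and let-7b turned (0.04), as did let-7a (0.29), let-7f (0.39), let-7g (0.43) and the median of all tested miRNAs (0.24). The calls of let-7b and let-7c also ended with normexp (-0.64 and -0.70) and without the block, and that of let-7c under quantile normalization (-0.37), while both held without any 1 array. Leaving out 1 array in turn kept the call of let-7a in 1 of 4 fits and those of let-7f and let-7g in 0.

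Gr1+ monocytes were set against MDP to follow monocyte formation. let-7c was -0.01 and 0.02 in monocytes, against 0.49 and 0.89 in MDP (-0.68 ± 0.10, adjusted p = 0.000829), and let-7b fell as well (-0.67 ± 0.10, adjusted p = 0.000871). let-7i was 1.53 and 1.56 in monocytes, against 0.98 and 1.07 in MDP (0.52 ± 0.11, adjusted p = 0.00415), and let-7g 0.93 and 0.79, against 0.47 and 0.46 (0.40 ± 0.09, adjusted p = 0.00735). For all 4 the arrays of the 2 populations did not overlap. These 4 are the members called on the same arrays, so this adds no separate support. How many of all tested miRNAs do the same here was not counted. The calls were 2 members higher and 2 lower, shares not far above the 20% and 17.7% of all tested miRNAs (37.7% in all). let-7a (-0.04 ± 0.10), let-7d (0.00 ± 0.10), let-7f (0.07 ± 0.11) and miR-98 (0.20 ± 0.13) were not called. With normexp 0 of the 4 calls remained (let-7g 0.26, let-7i 0.35, let-7b -0.54 and let-7c -0.61), and the median of all tested miRNAs was 0.73, so that let-7g and let-7i lay below it by values of -0.47 and -0.38. With all miRNAs setting the scale the 2 higher calls ended, at differences of 0.37 (let-7g) and 0.49 (let-7i). The call of let-7g also ended under quantile normalization (0.28), without the block (0.40, adjusted p = 0.0644 by limma) and without Gr1+ monocytes replicate 1 (0.36), and that of let-7b without the block (adjusted p = 0.0742 by limma).

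PDC, set against CDP within marrow, showed the largest rise. let-7g was 1.62 and 1.75 in PDC, against 0.45 and 0.31 in CDP (1.30 ± 0.09, 2.46-fold, adjusted p = 5.49e-06), and kept its call in all 9 other settings. let-7f (0.72 ± 0.11, adjusted p = 0.000471), let-7a (0.63 ± 0.10, adjusted p = 0.00084), let-7i (0.61 ± 0.11, adjusted p = 0.00139) and let-7d (0.46 ± 0.10, adjusted p = 0.00547) were also higher, of which let-7d turned with the scale over all miRNAs (-0.07). So 5 members were called higher and 0 lower, beside 25.7% and 12% of all tested miRNAs (37.7% in all). With all miRNAs setting the scale, let-7g was the 1 member still higher and the median of all tested miRNAs moved to -0.24, against 0.00 in the main scaling. let-7b (-0.06, 95% interval -0.29 to 0.18), let-7c (0.02, -0.22 to 0.25) and miR-98 (-0.01, -0.30 to 0.29) were not called. The 2 probes of let-7c gave differences of opposite sign here, 0.09 and -0.20, each keeping its sign on both designs. let-7c turned in other settings, the scale over all miRNAs (-0.51), quantile normalization (-0.18) and the brightest probe. let-7b was called lower in the first of these (-0.58, adjusted p = 0.0149 by limma) and miR-98 in the second (-0.49, adjusted p = 0.0167 by limma).

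The mean of the 3 spleen DC was set against CDP, a comparison in which tissue and maturation cannot be told apart and which shares the CDP arrays with the preceding one. let-7g was highest by difference (0.93 ± 0.07, adjusted p = 7.7e-06), at 1.13 to 1.46 in spleen DC, against 0.45 and 0.31 in CDP. let-7f (0.63 ± 0.09), let-7a (0.57 ± 0.08), let-7d (0.50 ± 0.08), let-7i (0.36 ± 0.09) and miR-98 (0.30 ± 0.11) were also called higher, but all 5 turned with the scale over all miRNAs (-0.08, -0.14, -0.21, -0.35 and -0.41). The call of let-7i reversed under quantile normalization, where it was called lower (-0.32, adjusted p = 0.025 by limma). let-7b was called lower (-0.26 ± 0.08, adjusted p = 0.0287) and let-7c was not called (-0.21 ± 0.08, adjusted p = 0.0644), and neither turned in any setting; let-7c was called lower in 4 of the 9 others (to -0.92). The 6 higher calls stood beside 36.6% of all tested miRNAs and the 1 lower call beside 19.4% (56% in all). The median of all tested miRNAs was 0.26 in the main scaling, -0.06 with all miRNAs setting the scale and 0.03 after quantile normalization, and let-7g exceeded it by 0.67, 0.28 and 0.31 in those settings, although its call ended with the scale over all miRNAs (0.22). The call of let-7b ended without either CDP array (-0.19 and -0.32) and without CD4+ DC replicate 1 (-0.25).

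The change in monocytes over MDP was also set against the changes in PDC and in spleen DC over CDP, as a difference of 2 changes added after seeing the data. Against PDC 6 members were called lower and 0 higher, beside 21.1% and 10.3% of all tested miRNAs (31.4% in all). Against spleen DC 6 were called lower and 0 higher, beside 21.7% and 10.9% (32.6% in all), and these 6 turned with the scale over all miRNAs.

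Among spleen DC the members differed less. In CD8+ DC against the mean of the other spleen DC, 1 member was called higher, miR-98 (0.45 ± 0.11, adjusted p = 0.0146), and 0 lower, beside 25.7% and 7.43% of all tested miRNAs (33.1% in all). This call ended when either CD8+ DC array was left out, and the difference turned with the scale over all miRNAs (-0.30), as did the median of all tested miRNAs (-0.23, against 0.19 in the main scaling). let-7f (0.27, 95% interval 0.06 to 0.48) and let-7d (0.24, 0.04 to 0.44) missed the threshold and turned with the scale over all miRNAs (-0.48 and -0.50), a setting in which 5 members were called lower and 0 higher. Both were called higher without CD4-CD8- DC replicate 1 (0.32 and 0.30). In CD4+ DC against CD4-CD8- DC limma called 0 members, with let-7b (-0.38 ± 0.10, adjusted p = 0.0722) and let-7c (-0.37 ± 0.10, adjusted p = 0.082) at an unadjusted p under 0.05, beside 4.57% of all tested miRNAs called. Both were lower in CD4+ DC on both designs and in the 9 other settings, and let-7b was called without CD4-CD8- DC replicate 1 (-0.50), a fit in which the lone array left is assumed to vary like the other populations.

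PDC were also set against the mean of the spleen DC. let-7g (0.37 ± 0.07, adjusted p = 0.00346) and let-7i (0.25 ± 0.09, adjusted p = 0.0484) were higher and miR-98 (-0.31 ± 0.11, adjusted p = 0.0437) lower in PDC, beside 18.3% and 24.6% of all tested miRNAs (42.9% in all). let-7g was 1.62 and 1.75 in PDC, against 1.13 to 1.46 in spleen DC. The miR-98 difference was -0.54 on design 1 and -0.08 on design 2, and its call ended without PDC replicate 1 (-0.10), replicate 1 of CD4+ DC (-0.28) or CD4-CD8- DC (-0.27), or either CD8+ DC array (-0.32 and -0.29). That of let-7i ended without PDC replicate 2 (0.10), either CD4+ DC array (0.25 both), or replicate 2 of CD8+ DC or CD4-CD8- DC (0.22 both). Under quantile normalization let-7a (0.39), let-7b (0.35), let-7c (0.43) and let-7f (0.87) were called higher in PDC as well. Tissue and cell type cannot be told apart here.

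The members fell into sets that moved together over the 8 population means. let-7b and let-7c correlated at r = 1.00, and let-7a, let-7d and let-7f at 0.97 to 0.98. let-7g correlated with let-7f at 0.91, and let-7i with let-7g at 0.76. The 12 pairs of let-7b or let-7c with any other member ran from -0.63 to -0.04, while the 15 pairs without them ran from 0.37 to 0.98. These correlations describe 8 points that share libraries and scaling.

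Position and sequence were set beside these correlations. Of 28 pairs, 5 have hairpins within 10 kb of each other, and their r ran from 0.54 (let-7f and miR-98) to 1.00 (let-7b and let-7c), while the other 23 pairs ran from -0.63 to 0.91. The 3 pairs that differ by a single base did not behave alike: let-7b and let-7c stood at 1.00 and let-7a and let-7f at 0.97, both with neighbouring hairpins, but let-7a and let-7c stood at -0.04. The most distant pair, let-7d and let-7i with 6 bases different, stood at 0.59. The pairs among let-7a, let-7d and let-7f share a cluster and are not separate cases. let-7a, let-7c and let-7f are each also made at another locus, so hairpin distance need not describe the measured signal. In all 3 single-base pairs the probes had only 1 mismatch to the other member. Whether position, sequence or signal shared between probes accounts for these correlations was not tested.

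**Figure D5:**
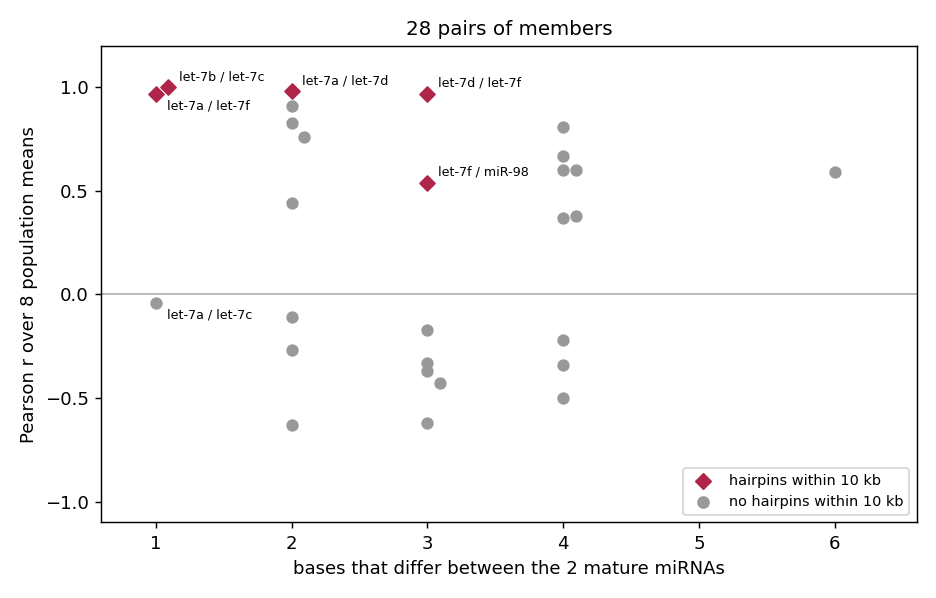
Pearson r over 8 population means against the number of bases that differ between the mature miRNAs, for 28 pairs of members. Red diamonds are pairs with hairpins within 10 kb (0.54 to 1.00), grey circles the other pairs (-0.63 to 0.91), and the 3 pairs with 1 base different lie at 1.00, 0.97 and -0.04.

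Outside the family, the miRNAs whose population means were most like those of let-7b were miR-130a (r = 0.945), miR-196b (0.942) and miR-126-3p (0.89), and the same 3 led for let-7c (0.933, 0.934 and 0.872). They are known from stem and progenitor cells, and each was detected on 8 arrays, so that much of their pattern is the floor. Most like let-7g were miR-107 (0.97), miR-29b (0.967) and miR-26b (0.955), and most like let-7i was miR-103 (0.943), all 4 detected on 16 arrays. let-7f and let-7d were most like miR-331-3p (0.956 and 0.949), let-7a like miR-1892 (0.925), and miR-98 like miR-370 (0.958), which was detected on 5 arrays. All of these are over 8 means and carry no test.

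The relatives and neighbours of the family were mostly dim. let-7e, a further member made in another cluster, was detected on 7 arrays, on both arrays of MP (-4.27 and -3.36), CD4+ DC and CD4-CD8- DC and on 0 arrays of MDP, CDP, Gr1+ monocytes and CD8+ DC. Of the 5 cluster partners miR-99a, miR-99b, miR-100, miR-125a-5p and miR-125b-5p, 2 were tested. Both were lower in differentiated populations, beside 24.6% of all tested miRNAs, miR-99a by -1.37 ± 0.11 (adjusted p = 3.69e-06) and miR-125b-5p by -1.40 ± 0.14 (adjusted p = 2.28e-05). In spleen DC against CDP 0 of the 2 were called. There miR-125b-5p was -3.06 to -2.77 in CD4+ DC and CD4-CD8- DC and -4.87 and -3.67 in CD8+ DC, against -3.18 and -2.99 in CDP. Values of miR-99a were -3.91 to -3.66 and, in CD8+ DC, -5.30 and -4.80, against -4.13 and -3.86. miR-99a, whose hairpin lies beside that of let-7c on chromosome 16, was detected on 14 arrays and lost its call with normexp (-0.44). miR-202-3p, listed with let-7e as sharing the seed or most of it, was higher in CD8+ DC than in other spleen DC (1.49 ± 0.31, adjusted p = 0.00587), a call that ended in 4 of 9 other settings and without CD8+ DC replicate 2. Of 7 passenger strands, 0 were tested and 5 were detected on 0 arrays, while let-7b* was detected on 7 arrays and let-7f* on 6.

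Markers were read to check the labels. miR-223, the myeloid miRNA, was detected on all arrays and lay between 0.09 and 0.52 in PDC and between 2.07 and 4.54 elsewhere. miR-126-3p, miR-130a and miR-196b, known from stem and progenitor cells, were detected on both arrays of MP, MDP, CDP and PDC and on 0 arrays of the other populations. Of miRNAs known from lymphocytes, miR-181a was 0.61 and 0.83 in PDC and -2.26 to -0.92 elsewhere, and miR-150 lay between -2.49 and -0.12 in PDC and spleen DC, and between -5.74 and -3.99 in the others. Of the erythroid miRNAs, miR-144 was detected on 0 arrays and miR-486 on 3, but miR-451 was -2.95 to -1.54 in PDC and -2.65 to 0.31 in spleen DC, against -5.30 to -1.0 in progenitors, and its population means correlated with those of let-7a (0.916) and let-7d (0.931). The summed signal of miR-451 and miR-486 was -4.22 and -4.05 in Gr1+ monocytes, against -4.30 and -4.43 in MDP. It was -2.69 and -1.47 in PDC and -2.49 to 0.35 in spleen DC, against -3.92 and -4.50 in CDP, and -0.90 and -4.43 in MP. The part of red cell RNA in the differences of any member was not tested, in these or the other comparisons.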

How the data were processed

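RNA of 8 sorted populations, 2 pools each, was hybridised to Agilent miRNA arrays with the Cy3 dye, per the labels' protocols. The authors deposited spot intensity values, background-subtracted but with no scaling across arrays; the file headers name Feature Extraction 10.7.3.1 and the submitters' processing notes name 9.1. The series tables, also intensity values as deposited, held the same signals, within 0.51%, at all 13715 (design 1) or 14635 (design 2) spots of each array.

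Flagged spots were left out, spots averaged per probe, and probes per miRNA on the linear scale. Signals were scaled per array to the 75th percentile over those 88 miRNAs that every array detected (factors 333 to 876), floored at -5.30 (design 1) or -5.78 (design 2) and logged. A miRNA was detected where a probe had at least a share of 0.5 of its spots well above background. The 175 miRNAs detected on both arrays of a population entered 1 linear model (limma 3.58.1, R 4.3.3) of 8 population means and the array design as a block (8.52 residual degrees of freedom). P-values were adjusted by Benjamini and Hochberg within each comparison. Replicate number, array design and slide are 1 split, so the numbers pair the arrays, and deviations of same-numbered arrays correlated in all 28 pairs of populations (r 0.297 to 0.917, median 0.572). The statistics were tested on simulated data.

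The rule for named miRNAs was all 8 members, the 3 most correlated others per member (the text gives those that lead), and the lists of relatives, partners, passenger strands and markers. Members and lists were chosen with earlier results of these data known. The labels call the replicates biological. Alternatives changed scaling, background correction, probes, filter, block and values.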

Additional observations from a re-analysis of the deposited data

Results flagged for a closer look

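The change of a member in Gr1+ monocytes over MDP was set against its change in PDC over CDP and in spleen DC over CDP, as the difference of the 2 changes in the limma fit, with adjusted p over the 175 tested miRNAs. The 16 differences were added after seeing the data, and both sets share the monocyte, MDP and CDP arrays. The change was smaller or more negative in monocytes than in PDC for let-7a (-0.66, adjusted p = 0.00765), let-7b (-0.61, 0.0123), let-7c (-0.70, 0.00701), let-7d (-0.46, 0.0386), let-7f (-0.65, 0.0108) and let-7g (-0.90, 0.000924). In this set 21.1% of the tested miRNAs were called lower and 10.3% higher. Of these 6 members, let-7d turned when scaled over all miRNAs (0.03) and lost its call when 6 of 8 arrays were left out in turn, and let-7g ranged from -0.99 to -0.41 over 9 other settings, with 7 calls. let-7a (-0.81 to -0.17), let-7b (-0.66 to -0.12), let-7c (-0.79 to -0.20) and let-7f (-1.22 to -0.16) were each called in 6 of those 9 settings.

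Against spleen DC the difference was -0.61 for let-7a (adjusted p = 0.0112), -0.41 for let-7b (0.0438), -0.47 for let-7c (0.0257), -0.51 for let-7d (0.019), -0.56 for let-7f (0.0159) and -0.53 for let-7g (0.0113). All 6 turned when scaled over all miRNAs, to 0.08, 0.27, 0.21, 0.18, 0.13 and 0.15. They were called in 5 (let-7a, let-7f and let-7g), 4 (let-7c and let-7d) or 3 (let-7b) of 9 other settings, beside 21.7% of the tested miRNAs called lower and 10.9% higher. let-7i and miR-98 passed the threshold in neither set in the main scaling, but let-7i was called higher against spleen DC in 2 other settings (to 0.84), and miR-98 under quantile normalization in each set (0.81 and 0.55).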

How the results depend on the processing

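The direction and call of let-7b, let-7c and let-7g in differentiated against progenitor populations, over all populations and within marrow, held in all 9 other settings and without any 1 array. The scale of the arrays moved most other results, and the cause was not tested. The values of the series tables left all 80 member differences on their side of the threshold.

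Scaled over all miRNAs, the F test called 4 members, differentiated populations 1 higher, Gr1+ monocytes 0 higher, PDC over CDP 1 higher and 1 lower, spleen DC over CDP 0 higher and 2 lower, CD8+ DC 0 higher and 5 lower, MDP over MP 0 lower and PDC over spleen DC 0 lower. Differences that turned were, in MDP over MP, 0.05 (let-7d), 0.02 (let-7f), 0.04 (let-7g) and 0.00 (let-7i), and in CDP over MDP 0.34 (let-7a), 0.19 (let-7b), 0.18 (let-7c), 0.39 (let-7d), 0.37 (let-7f), 0.39 (let-7g) and 0.45 (let-7i). In PDC over CDP let-7c (-0.51) and let-7d (-0.07) turned, and in spleen DC over CDP let-7a (-0.14), let-7d (-0.21), let-7f (-0.08), let-7i (-0.35) and miR-98 (-0.41). In CD8+ DC let-7a (-0.55), let-7d (-0.50), let-7f (-0.48), let-7i (-0.60) and miR-98 (-0.30) turned, in CD4+ DC miR-98 (0.02) and in PDC over spleen DC let-7d (0.14). In CDP over MP let-7a (0.29), let-7b (0.04), let-7d (0.44), let-7f (0.39), let-7g (0.43) and let-7i (0.45) turned. Of the monocyte change minus that of PDC, let-7d (0.03) and let-7i (0.40) turned, and minus that of spleen DC let-7a (0.08), let-7b (0.27), let-7c (0.21), let-7d (0.18), let-7f (0.13), let-7g (0.15) and miR-98 (0.59).

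Under quantile normalization, differentiated populations had 2 members called higher, Gr1+ monocytes 1 higher, PDC over CDP 3 higher and 1 lower, spleen DC over CDP 1 higher and 3 lower, CD8+ DC 0 higher, MDP over MP 0 lower, and PDC over spleen DC 6 higher and 0 lower. let-7a turned in differentiated populations (-0.09), within marrow (-0.06), in spleen DC over CDP (-0.06), CD4+ DC (0.04) and CDP over MDP (0.00). let-7d turned in differentiated populations (-0.01), MDP over MP (0.05), CDP over MDP (0.02), spleen DC over CDP (-0.06), CD8+ DC (-0.01) and PDC over spleen DC (0.12). let-7f turned in Gr1+ monocytes (-0.25), CD4+ DC (-0.05) and CDP over MDP (0.00), and let-7i in CDP over MDP (0.22), spleen DC over CDP (-0.32) and CD8+ DC (-0.11). Of the differences that turned in this setting, 1 was called in both directions, let-7i in spleen DC over CDP. In CDP over MP let-7d (0.07) and let-7i (0.09) turned. let-7c in PDC over CDP (-0.18), let-7g in CDP over MDP (0.09) and miR-98 in spleen DC over CDP (-0.23) and CD4+ DC (0.06) turned too, as did the difference of changes of let-7i against PDC (0.09) and those of let-7d (0.01) and miR-98 (0.55) against spleen DC.

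With normexp the F test called 5 members, differentiated populations 3 higher, marrow 1 higher, PDC over CDP 3 higher, spleen DC over CDP 0 lower, and Gr1+ monocytes, CD8+ DC, MDP over MP and PDC over spleen DC 0 in either direction. let-7f turned in Gr1+ monocytes (-0.09), let-7i (0.01) and miR-98 (-0.14) in CDP over MDP, miR-98 (-0.03) in CDP over MP, and miR-98 (0.35) in the difference of changes against spleen DC. With the brightest probe CD8+ DC had 2 higher, PDC over spleen DC 4 higher and 0 lower, spleen DC over CDP 2 lower and MDP over MP 0 lower, and let-7d (0.01), let-7g (0.01) and let-7i (0.04) turned in CDP over MDP, let-7d (0.02) in PDC over spleen DC, let-7g (0.04) in CD8+ DC and let-7c (0.00) in PDC over CDP. With no filter CD8+ DC had 0 higher, PDC over spleen DC 4 higher, spleen DC over CDP 2 lower and MDP over MP 0 lower. PDC over spleen DC had 1 higher with miRNAs detected on all arrays only and with total gene signal.

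The replicate numbers pair the arrays by design. Without the replicate block Gr1+ monocytes had 1 member higher and 1 lower, CD8+ DC 0 higher, PDC over spleen DC 1 higher and 0 lower, MDP over MP 0 lower and spleen DC over CDP 0 lower. The differences themselves do not depend on the block, because each population had 1 array on each design.

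Leaving out 1 array leaves its population with a lone array, assumed to vary like the others. It gave 7 to 8 members called by the F test, 3 to 5 higher within marrow, 1 to 2 higher in Gr1+ monocytes, 4 to 6 higher and 0 to 1 lower in spleen DC over CDP, 1 to 2 higher and 0 to 1 lower in PDC over spleen DC, 0 to 3 higher in CD8+ DC, 0 to 1 lower in MDP over MP and 0 to 1 lower in CD4+ DC. Within marrow the 5 came without PDC replicate 1, with let-7a (0.20) and miR-98 (0.21) called, and in spleen DC over CDP let-7i (0.28) lost its call without CDP replicate 2. Values that turned ran, in CD4+ DC, from -0.13 to 0.03 (let-7a), -0.23 to 0.02 (let-7d), -0.05 to 0.15 (let-7f) and -0.15 to 0.09 (miR-98). In CDP over MDP they ran from -0.19 to 0.02 (let-7d), -0.10 to 0.06 (let-7i) and -0.05 to 0.05 (miR-98), and in Gr1+ monocytes from -0.13 to 0.06 (let-7a) and -0.11 to 0.10 (let-7d). In PDC over CDP they ran from -0.12 to 0.01 (let-7b), -0.02 to 0.05 (let-7c) and -0.21 to 0.20 (miR-98), and in PDC over spleen DC from -0.01 to 0.12 (let-7a), -0.10 to 0.01 (let-7d) and -0.03 to 0.22 (let-7f). let-7g in CD8+ DC ran from -0.04 to 0.04, miR-98 in MDP over MP from 0.00 to 0.09, and the difference of changes of let-7i against PDC from -0.24 to 0.05. None of these was called on both sides.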
